A study of Mus musculus with 7 samples.

Results

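The genes of transforming growth factor β (TGF-β) signalling were examined in the H3K27-Ac peak lists of 3 cell clones from skin tumours of *Cdkn2ab* mutant mice. The 10 genes are the ligands *Tgfb1*, *Tgfb2* and *Tgfb3*, the receptors *Tgfbr1*, *Tgfbr2* and *Tgfbr3*, and the intracellular mediators *Smad2*, *Smad3*, *Smad4* and *Smad7*. They were chosen by name, out of 21938 protein-coding genes that GENCODE places on chromosomes 1 to 19, X and Y of GRCm38. For each gene and clone the peaks within 1 kb of an annotated transcription start (promoter peaks), the other peaks over the gene (body peaks), the peaks outside the gene but within 100 kb of a start (distal peaks) and the domain made by joining peaks no more than 12500 bp apart were collected.

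H3K27-Ac, acetylated lysine of histone H3, marks active promoters and enhancers. In ChIP-seq, chromatin carrying the mark is pulled out with an antibody and its DNA is sequenced. The antibody field of the labels names H3K27ac for these libraries, and it was followed here, although the extraction text of the same labels lists CTCF, SMC1 and IgG and not H3K27ac. Each clone was grown from a tumour of a backcross of the 129P2 strain, in which the *Cdkn2ab* deletion was made, to FVB/N, was selected by growth in soft agar and was then kept as adherent cells. Of 4 H3K27-Ac libraries, clone 3 supplied 2, pooled before peak calling, and the other clones 1 each, and of 3 libraries made with control IgG, clone 3 supplied 2 and clone 1 supplied 1. All libraries share the *Cdkn2ab* mutation and there is no other genotype and no treatment, so the clones were compared with each other and with the other genes of the same list. Each clone is a single selected line, and a difference between clones can be one between tumours, between lines or between libraries, which cannot be told apart.

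The lists hold 29182, 49587 and 29277 peaks for clones 1, 2 and 3, and their weakest peaks rest on 13, 12 and 25 ChIP reads at the summit. The reads at each summit are not in the lists but were recovered as whole numbers from the fold enrichment and the p-value of every peak. They are given as counted and as normalised reads, that is, divided by a size factor of 0.801, 1.70 and 0.761, which sets the median ratio between clones to the same level over 15732 regions with a peak in every clone. A weaker site is not listed, and the lowest values listed were 16.2, 7.04 and 32.9 normalised reads in clones 1, 2 and 3. The labels give no IgG library for clone 2, and the control used for it is not given in the sources used here. The local background of lists 1 and 2 agreed to within 1 control read at 71.3% of 988 shared summits, so these lists were not taken to be independent of each other. With clone 3 the share was 0%. There the median control counts were 37 against 71 for clone 1 and 39 against 69 for clone 2. Agreement within 1 read was thus hardly possible with clone 3, and the 0% is no baseline for the 71.3%. The label of skin tumour cells was set beside markers of cell types. Of 10 keratinocyte and hair follicle genes, *Cdh3* and *Sox9* had a promoter peak in every clone and *Krt5*, *Krt17*, *Trp63*, *Cdh1*, *Lef1* and *Dsg3* had none in any clone. *Trp63*, a transcription factor of stratified epithelium, nevertheless held 6, 10 and 10 body peaks and lay in the top 12.9%, 10.6% and 5.00% of domains, and *Cdh1*, which encodes E-cadherin, held 4, 8 and 2 body peaks and lay in the top 8.46%, 9.36% and 8.25%. Of 8 fibroblast genes 4, *Pdgfrb*, *Vim*, *Twist1* and *Prrx1*, had a promoter peak in every clone, a share near the 46.5% of all protein-coding genes. The other 4 had one in 1 or 2 clones. The 2 of 10 keratinocyte and hair follicle genes lie below 46.5%. High domain ranks were not limited to epithelial genes. *Vim* lay in the top 0.694%, 11.2% and 0.257% of domains, and the haematopoietic gene *Cd68* in the top 3.09%, 1.90% and 4.93%. *Krt14* was marked in clone 1 alone and *Krt15* in clone 2 alone, so no keratin of the list had a promoter peak in every clone. Of the simple epithelial, haematopoietic and endothelial genes none had a promoter peak in every clone, and of 4 melanocyte genes only *Mitf* had one.

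TGF-β is secreted in a latent form, is released outside the cell and binds the type II receptor, encoded by *Tgfbr2*, which then phosphorylates the type I receptor, encoded by *Tgfbr1*. The type I receptor phosphorylates SMAD2 and SMAD3, which bind SMAD4 and enter the nucleus to regulate target genes. SMAD7 blocks the type I receptor and is itself a target of the pathway, and betaglycan, encoded by *Tgfbr3*, is a co-receptor that presents ligand. In skin epithelium the pathway is known to restrain growth, in part through induction of p15Ink4b, which is encoded by *Cdkn2b* and is missing in these mice, and in later tumours it is known for its role in invasion.

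All 10 genes had a promoter peak in every clone. Among all protein-coding genes 46.5% did so, and 49.8%, 56.9% and 48.1% had one in clones 1, 2 and 3. The count stayed at 10 when a peak had to cover the start base itself, and at every other setting tried. Within each list the strongest promoter peak of these genes, measured by fold enrichment, lay at a median percentile of 91.0, 91.9 and 86.6 among all peaks of clones 1, 2 and 3, or 89.8 ± 2.87 over the clones (SD, n = 3). For all protein-coding genes with a promoter peak the medians were 81.1, 88.1 and 77.4. The range over the 10 genes was 74.9 to 98.8 in clone 1, 83.3 to 98.6 in clone 2 and 49.7 to 99.4 in clone 3, and the lowest value of clone 3 belongs to *Tgfb1*.

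The reads at the outermost annotated start order the 10 genes. *Smad4* had a mean of 243 ± 6.07 normalised reads and *Smad2* one of 239 ± 37.2 (SD, n = 3 clones, here and for the means that follow). The lowest value of either, 218 reads of *Smad2* in clone 2, lay above the highest value of each of the other genes, which was 199 reads of *Tgfbr2* in clone 1. *Tgfbr2* came next with 182 ± 23.3 reads. *Tgfbr1* with 148 ± 36.0, *Tgfbr3* with 145 ± 27.2, *Smad3* with 135 ± 49.2, *Tgfb3* with 129 ± 15.3, *Smad7* with 116 ± 33.9 and *Tgfb2* with 105 ± 21.8 reads followed, and each of these neighbours overlapped the next in its values. *Tgfb1* was the lowest with 81.9 ± 25.4 reads, and its values overlapped those of *Tgfb2*. These are reads at a single base of the summit and so do not grow with the length of a gene.

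**Figure D1:**
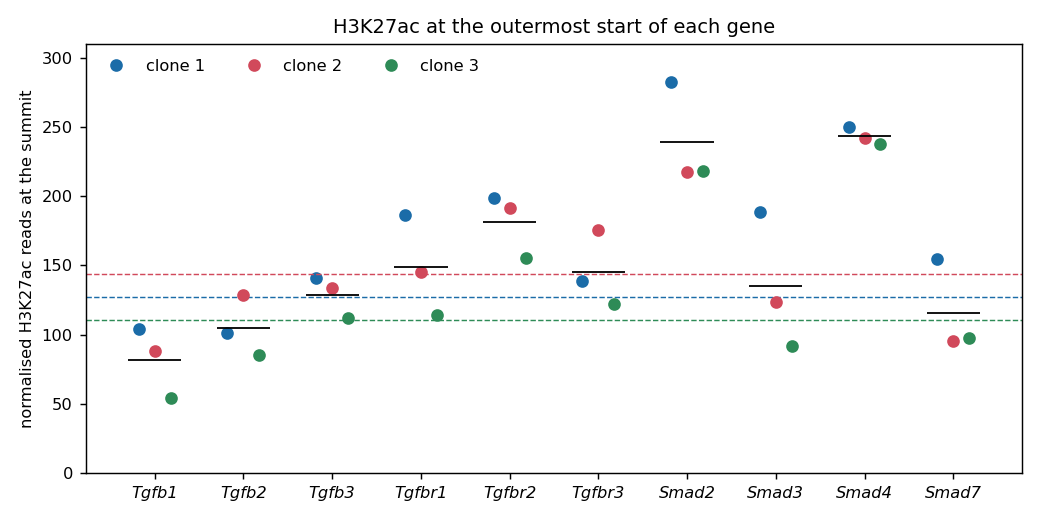
Normalised H3K27-Ac reads (vertical axis) at the strongest peak within 1 kb of the outermost start of each gene (horizontal axis), with 1 point per clone, the mean over clones as a black bar and, as dashed lines, the median of 9494 protein-coding genes with such a peak in every clone. *Smad2* and *Smad4* lie above all 3 lines in every clone and *Tgfb1* lies below them in every clone.

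Between clones the reads at the outermost start of these genes differed by a median of 1.47-fold from the lowest to the highest clone, and the median over 9494 protein-coding genes with such a peak in every clone was 1.47-fold too. *Smad3* alone among the 10 was over 2-fold apart, with 2.05-fold, while 12.3% of the 9494 genes were. With size factors taken only over regions near starts, a choice made after the values were seen, *Smad3* was 1.84-fold apart and none of the 10 exceeded 2-fold. *Smad4* had the smallest difference of the 10, 1.05-fold, or 1.17-fold with the other size factors.

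The bases just upstream of 5 of the outermost starts are shown to describe their GC content and their matches to short sequences. They are the 250 bases before the RefSeq start on GRCm38.p6, read 5′ to 3′ on the strand of the gene, from the C57BL/6J reference genome and not from FVB/N or 129P2. Capitals mark matches on either strand to GGGCGG (the SP1 box), CCAAT (bound by NF-Y), TATAAA (the TATA box) and CAGAC (the SMAD box). The table of RefSeq promoters matched *Tgfb1*, *Tgfb2*, *Tgfbr1*, *Tgfbr2* and *Smad3*. The windows are chr7:25686752-25687001 (plus strand) for *Tgfb1*, chr1:186705990-186706239 (minus) for *Tgfb2*, chr4:47352972-47353221 (plus) for *Tgfbr1*, chr9:116175364-116175613 (minus) for *Tgfbr2* and chr9:63757995-63758244 (minus) for *Smad3*.
Tgfb1: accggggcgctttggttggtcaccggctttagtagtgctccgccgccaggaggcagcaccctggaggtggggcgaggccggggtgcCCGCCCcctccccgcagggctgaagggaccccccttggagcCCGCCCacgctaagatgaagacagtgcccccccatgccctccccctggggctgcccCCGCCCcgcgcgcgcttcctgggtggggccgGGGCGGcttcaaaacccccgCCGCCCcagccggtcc
Tgfb2: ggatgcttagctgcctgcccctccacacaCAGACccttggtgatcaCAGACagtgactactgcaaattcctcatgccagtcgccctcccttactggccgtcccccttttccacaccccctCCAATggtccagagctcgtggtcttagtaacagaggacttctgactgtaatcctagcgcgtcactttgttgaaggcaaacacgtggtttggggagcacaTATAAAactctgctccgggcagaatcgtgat
Tgfbr1: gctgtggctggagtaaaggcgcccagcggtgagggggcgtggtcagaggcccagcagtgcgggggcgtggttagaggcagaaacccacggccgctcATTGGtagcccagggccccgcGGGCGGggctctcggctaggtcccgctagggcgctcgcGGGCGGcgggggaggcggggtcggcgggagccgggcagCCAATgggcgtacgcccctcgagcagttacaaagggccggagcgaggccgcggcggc
Tgfbr2: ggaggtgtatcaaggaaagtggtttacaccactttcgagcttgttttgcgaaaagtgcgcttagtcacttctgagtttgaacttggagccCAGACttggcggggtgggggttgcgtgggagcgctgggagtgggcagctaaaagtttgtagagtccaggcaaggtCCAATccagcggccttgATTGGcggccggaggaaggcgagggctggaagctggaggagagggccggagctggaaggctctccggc
Smad3: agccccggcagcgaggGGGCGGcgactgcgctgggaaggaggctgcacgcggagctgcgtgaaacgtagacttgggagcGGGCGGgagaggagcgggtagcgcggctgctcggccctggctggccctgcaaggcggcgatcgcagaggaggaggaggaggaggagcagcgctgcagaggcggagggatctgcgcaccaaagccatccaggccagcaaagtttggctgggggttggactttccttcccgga

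*Tgfb1* is 75.2% G or C in this window and holds 5 SP1 boxes, *Tgfbr1* is 74.8% and holds 2, and *Smad3* is 69.2% and holds 2. These 3 windows lie at percentiles 96.4, 96.1 and 90.2 of GC content among 32851 RefSeq promoters, whose median is 52.4%. The window of *Tgfb2* is 53.6% G or C, at percentile 55.2, and is the only one of the 5 with a TATAAA match, and it also holds 1 CCAAT match and 2 SMAD boxes. That of *Tgfbr2* is 58.4% and holds 2 CCAAT matches, 1 on each strand, and 1 SMAD box. Over all promoters 32.7% hold GGGCGG, 33.8% CCAAT, 12.4% TATAAA and 42.2% CAGAC. Neither TGACGTCA, the cyclic AMP response element, nor TGANTCA, the AP-1 site, was found in any of the 5 windows, against 1.55% and 6.75% of all promoters. A match is a description of the letters and does not show that a factor binds. The promoter peaks of *Tgfbr1* and *Tgfbr2* covered all 250 bases in every clone. Those of *Tgfb1* and *Smad3* covered all 250 in clones 1 and 2, and 24 and 179 of the bases in clone 3. Those of *Tgfb2* covered 123, 196 and 5 of the bases in clones 1, 2 and 3, and most of their width lay on the transcribed side of the start.

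*Tgfb1*, the most widely made ligand, lies at chr7:25687002-25705077 on the plus strand. Its promoter peak had 83, 150 and 41 reads in clones 1, 2 and 3, or 104, 88.0 and 53.9 normalised reads, which is at percentiles 37.2, 18.3 and 6.28 of the 9494 genes. Clone 3 was the lowest, and there the mark was broken into 3 peaks of 395, 298 and 432 bp, while it was a single peak of 3539 bp in clone 1 and a pair of 2468 and 1113 bp in clone 2. The gene sits among other active genes. Of its 14, 23 and 9 distal peaks, 7, 8 and 7 lay within 1 kb of a start of another protein-coding gene, among them those of *B9d2*, *Ccdc97* and *Hnrnpul1*. The peak at *B9d2*, whose product belongs to the ciliary transition zone, had 201, 188 and 176 normalised reads, more than the promoter of *Tgfb1* in each clone. There was no body peak in clones 1 and 3 and 1 of 17 reads in clone 2, in an exon near its 3′ end, next to *Ccdc97*. Its domain in clone 2 is the one on the *Ccdc97* side and not the one of its promoter.

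*Tgfb2*, the ligand known from epithelial and mesenchymal development, lies at chr1:186622792-186705989 on the minus strand. The promoter peak had 81, 219 and 65 reads, or 101, 128 and 85.5 normalised reads, at percentiles 35.8, 41.2 and 31.0. It was 3986 bp wide in clone 1 and 2741 bp in clone 2 and reached far into the gene, and in clone 3 it consisted of 2 peaks of 587 and 1880 bp. Inside the gene 1 intronic region, chr1:186627370-186627957, 78.2 kb from the start, was marked in every clone, with 17, 32 and 37 reads. The 17 reads of clone 1 are near the 13 reads of the weakest peak of its list. The −log10 q of the region was 3.19, 9.18 and 4.31 in clones 1, 2 and 3. It was thus lost in the stricter lists of clones 1 and 3 with a −log10 q of at least 5. Downstream of the gene, the regions chr1:186586052-186587885 and chr1:186610093-186610710 carried 32, 27 and 85 and 32, 19 and 66 reads. On the normalised scale clone 3 exceeded clone 2 by 7.06-fold and 7.79-fold there, while the promoter was lowest in clone 3. Over all 5359 shared regions away from starts the highest and the lowest clone were a median of 2.47-fold apart, and clone 3 was the highest in 73.9%. At the outermost start clone 3 was the lowest at 57.4% of 9494 genes, or at 38.0% with size factors taken near starts.

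*Tgfb3*, the ligand best known from palate fusion and wound repair, lies at chr12:86056745-86079041 on the minus strand. It overlaps *Ttll5*, which does not reach the promoter peaks of *Tgfb3*. Its promoter had 113, 228 and 85 reads, or 141, 134 and 112 normalised reads, at percentiles 56.9, 44.3 and 51.5, close to the middle of all marked promoters in each clone. The summit lay 292 to 343 bp upstream of the start in every clone. Of its distal regions, an intronic one of *Ttll5*, chr12:86000230-86001828, had 77, 91 and 98 reads. Another, chr12:86022788-86024870, had 18, 29 and 94 reads, or 22.5, 17.0 and 124 normalised reads, so that clone 3 stood 7.27-fold above clone 2. Whether either region acts on *Tgfb3* or on *Ttll5* was not tested.

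*Tgfbr1*, the type I receptor, lies at chr4:47353222-47414931 on the plus strand. The promoter peak had 149, 247 and 87 reads, or 186, 145 and 114 normalised reads. It was compact, with widths of 1687, 1829 and 1530 bp, and no other peak lay over the gene in clones 1 and 2. Clone 3 had 2 intronic peaks of 42 and 39 reads. The strongest distal region lay 42.7 kb upstream, over an exon of *Col15a1*, a collagen gene, at chr4:47310104-47311810, with 85, 240 and 116 reads, or 106, 141 and 153 normalised reads. In clone 3 it had more reads than the promoter of *Tgfbr1* itself. A further one at chr4:47292343-47295144 in *Col15a1* had 63.7, 111 and 126 normalised reads.

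*Tgfbr2*, the type II receptor to which the ligand binds first, lies at chr9:116084293-116175360 on the minus strand and had the most strongly marked promoter of the receptors, with 159, 326 and 118 reads, or 199, 191 and 155 normalised reads. These are percentiles 79.3, 76.7 and 77.4, which differ by less than 3 points between clones. A cluster of peaks lay in an intron, from 21.9 kb into the gene. Its region chr9:116153077-116154520 had 78, 73 and 64 reads and its region chr9:116150008-116152907 had 72, 40 and 76 reads. On the normalised scale clone 2 was the lowest in both, with 42.8 and 23.5 reads against 97.4 and 89.9 in clone 1 and 84.2 and 99.9 in clone 3. The summits of the clones lay up to 185 bp apart in the former region and up to 1510 bp apart in the latter. Upstream of the gene 1 region was marked in every clone, chr9:116217972-116219775, 43.6 kb from the start, with 31, 46 and 54 reads.

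*Tgfbr3*, betaglycan, lies at chr5:107106570-107289629 on the minus strand and is the longest of the 10 genes, with 183 kb. Its promoter had 111, 299 and 93 reads, or 139, 175 and 122 normalised reads, with clone 2 the highest. The gene carried 19, 31 and 10 body peaks, of which 7 regions were marked in every clone. The region chr5:107199265-107202606, 88.7 kb into the gene, had 68, 76 and 140 reads, or 84.9, 44.6 and 184 normalised reads. It was thus 4.13-fold higher in clone 3 than in clone 2, and in clone 3 it exceeded the promoter. Of the 5 intronic regions of *Tgfbr3* that lay over 1 kb from every annotated start, clone 3 was the highest in 5. That order is also the usual one of such regions, as clone 3 was the highest in 73.9% of all 5359 shared regions away from starts. Clone 2 stood lowest at 4 of the 5 and highest at the promoter. This too is the general order, as its median was the lowest over all such regions and the highest over shared regions near starts.

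*Smad2*, which carries the signal of the activated type I receptor, lies at chr18:76241580-76310963 on the plus strand. Its promoter had 226, 371 and 166 reads, or 282, 218 and 218 normalised reads, at percentiles 95.6, 88.8 and 94.4. It was marked by a single sharp peak of 1454, 1829 and 1692 bp over 4 of its starts, with a small peak of 14 reads beside it in clone 1. No body peak was found in any clone over the 69.4 kb of the gene, and it was the only one of the 10 without any. There were 1, 2 and 0 distal peaks in clones 1, 2 and 3, against a median of 3, 4 and 3 over all protein-coding genes.

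*Smad3*, the close relative of *Smad2* with the same upstream receptor, lies at chr9:63646767-63757994 on the minus strand and had the opposite layout. Its promoter had 151, 211 and 70 reads, or 189, 124 and 92.0 normalised reads, at percentiles 76.3, 38.3 and 36.0. Beyond the promoter there were 16, 32 and 15 body peaks and 11, 17 and 7 distal peaks. A total of 9 body regions, all intronic, were marked in every clone, the strongest being chr9:63677747-63679236, 79.5 kb into the gene, with 77, 114 and 85 reads, and chr9:63701442-63703645, 55.3 kb into the gene, with 52, 148 and 55 reads. An internal start 90.9 kb into the gene was marked as well, with 44, 131 and 46 reads. Upstream, chr9:63810062-63811333, at a distance of 52.4 kb, had 68, 141 and 81 reads, or 84.9, 82.7 and 107 normalised reads, and differed little between clones. A neighbour at 35.5 kb, chr9:63792274-63794873, had 78.7, 18.8 and 160 normalised reads and so differed 8.55-fold between clones 2 and 3, against the median of 2.47-fold over all regions away from starts. It is the largest difference among the 66 regions of the 10 genes that were marked in every clone. The promoter and these upstream regions did not rank the clones alike. Clone 1 was highest and clone 3 lowest at the promoter, and clone 3 was highest at each upstream region named here. Over all 5359 shared regions away from starts clone 3 was the highest in 73.9%. It was the lowest at the outermost start of 57.4% of 9494 genes, or of 38.0% with size factors taken near starts.

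*Smad4*, the shared partner of all receptor-regulated Smads, lies at chr18:73639009-73703780 on the minus strand. It had 200, 412 and 181 reads at its promoter, or 250, 242 and 238 normalised reads, at percentiles 91.6, 96.4 and 96.7. The peak was 1442, 1619 and 1571 bp wide with the summit 191 to 235 bp inside the gene, so that height, width and position were almost the same in the 3 clones. The gene body was free of peaks in clones 1 and 3 and held 1 of 53 reads in clone 2. The strongest distal region, chr18:73571320-73574996, had 280, 227 and 237 normalised reads and is the promoter region of *Mex3c*, an RNA-binding protein gene, and another lay at *Elac1*.

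*Smad7*, the inhibitor of the receptor, lies at chr18:75367529-75395935 on the plus strand. The peaks at its outermost start had 124, 162 and 74 reads, or 155, 95.0 and 97.3 normalised reads, at percentiles 63.2, 21.7 and 40.5, which is no high rank. The mark was instead spread over the gene. Peaks covered 51.4%, 47.0% and 25.4% of its 28.4 kb in clones 1, 2 and 3, the largest share among the 10 genes in each clone. An intronic region 8.53 kb into the gene, chr18:75375688-75379132, close to an internal start, had 64, 56 and 134 reads, or 79.9, 32.9 and 176 normalised reads, and in clone 3 it exceeded the outermost start. The summits of the clones in this region lay up to 1809 bp apart, so the reads are not from 1 site. A region 24.7 kb upstream, chr18:75341836-75343583, had 108, 188 and 95 reads, or 135, 110 and 125 normalised reads, which vary by 1.22-fold between the clones. It lies in no protein-coding gene and over 1 kb from every annotated start, yet the 300 bases at its summit are 74.7% G or C, at percentile 99.7 of the 5359 shared regions away from starts.

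**Figure D2:**
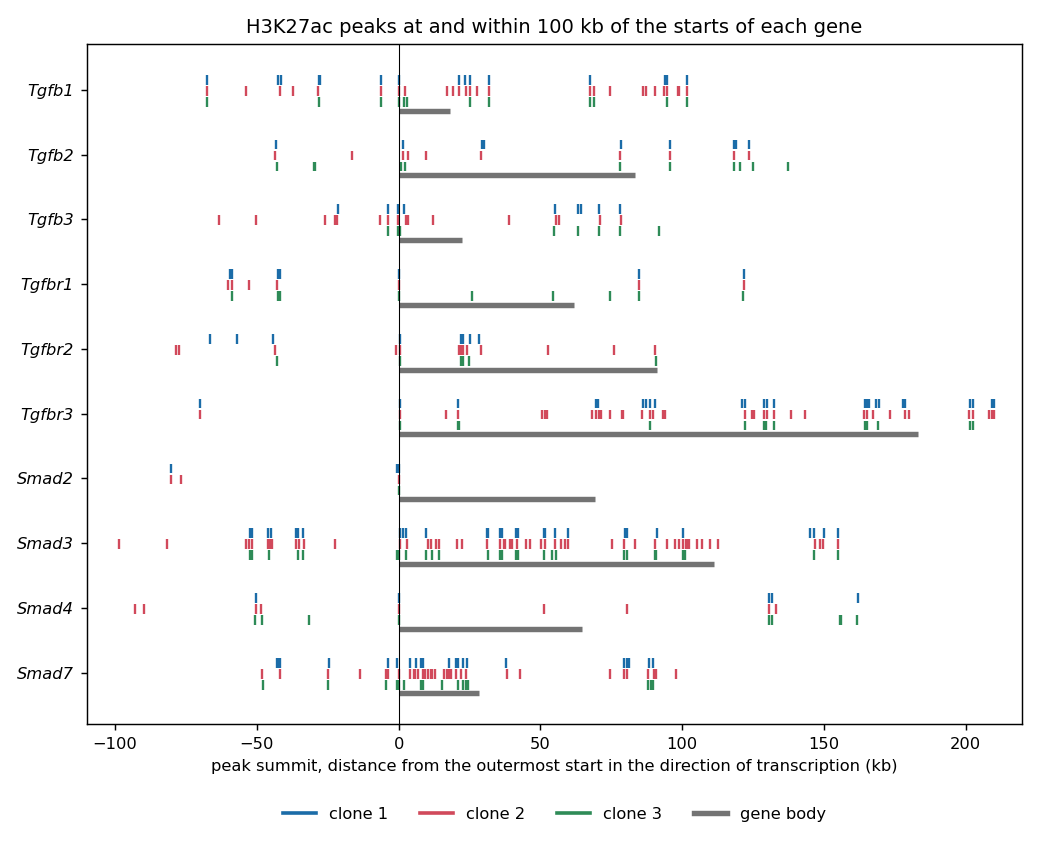
Summits of all H3K27-Ac peaks collected for each gene (rows), by distance in kb from the outermost start in the direction of transcription (horizontal axis), with 1 line of ticks per clone and the gene body as a grey bar. *Smad2* has no peak over its body beyond the start and *Smad3* and *Tgfbr3* have peaks along most of their length.

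Counted over the 10 genes, a body peak was found at 6, 8 and 6 genes in clones 1, 2 and 3. In every clone it was found at 5 genes, *Tgfb2*, *Tgfbr2*, *Tgfbr3*, *Smad3* and *Smad7*, against 10.9% of all protein-coding genes. The genes are long, from 18.1 to 183 kb, against a median of 17.4 kb over all protein-coding genes, and of all genes over 50 kb 36.4%, 50.3% and 43.4% had a body peak in clones 1, 2 and 3. The part of length in the count was not tested. A distal peak was found at 10, 10 and 9 genes and in every clone at 9, all but *Smad2*, against 70.9% of all protein-coding genes. Without peaks at or over another protein-coding gene the number was 7, as *Tgfb1* and *Tgfb3* were lost.

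At 38 regions of the 10 genes that were marked in every clone and lay over 1 kb from any annotated start, clone 3 had the most normalised reads at 28, clone 1 at 7 and clone 2 at 3. Over all 5359 such regions the shares were 73.9%, 14.3% and 11.8%, so that the genes of the pathway followed the general order. The median of the 38 regions was 56.2, 37.3 and 82.2 normalised reads in clones 1, 2 and 3, and that of all 5359 was 48.7, 34.0 and 74.9. At starts the order was another. The median over shared regions near starts was 116, 131 and 105 reads, and 8 of the 10 genes were lowest in clone 3 at their outermost start, where 57.4% of all genes were, or 7 of the 10 and 38.0% with size factors taken near starts. The higher least count of clone 3 moves with this order, and its part was not tested.

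**Figure D3:**
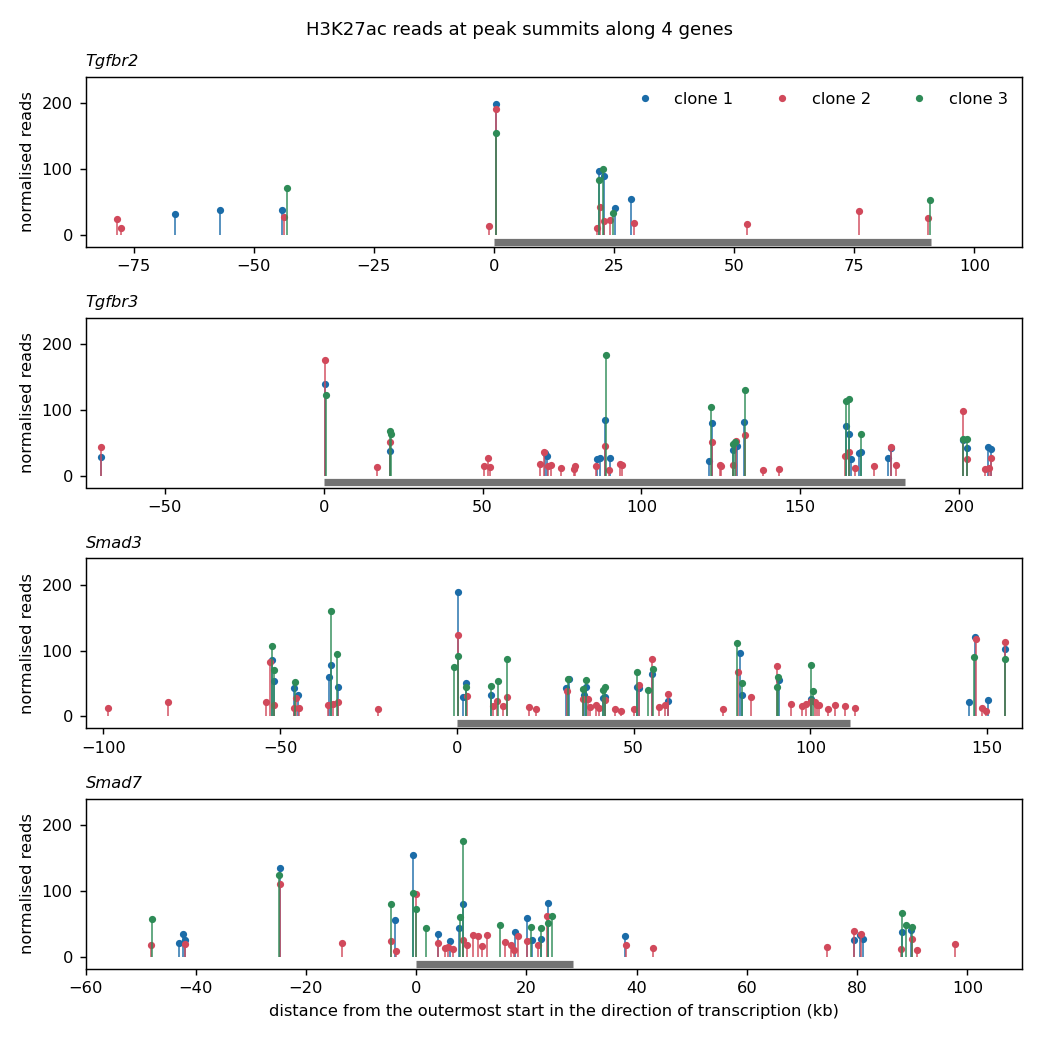
Normalised H3K27-Ac reads (vertical axis) at each peak summit along 4 genes, by distance in kb from the outermost start (horizontal axis), with 1 colour per clone and the gene body as a grey bar. At the starts of *Tgfbr2*, *Tgfbr3* and *Smad3* clone 3 is the lowest, and at the highest intronic peak of *Tgfbr3* and of *Smad7* it is the highest.

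The sequences at 5 shared regions away from starts are given for the receptors and *Smad3*, as a description of marked sites beyond the promoter. For each receptor it is the strongest such region of the gene, and for *Smad3* the strongest in the gene body and the strongest upstream. The strongest of *Smad3* in all directions, chr9:63610052-63612500, with 121, 118 and 89.4 normalised reads, lies 146 kb from the outermost start within *Aagab* and is not shown. They are the 300 bases around the middle one of the 3 summits, on the plus strand of GRCm38.p6 from RefSeq, and so again of C57BL/6J. Capitals mark matches on either strand to CAGAC (the SMAD box), GGAATG (bound by TEAD factors), TGTGGT (bound by RUNX factors) and TGANTCA (the AP-1 site). The windows are chr4:47310408-47310707 upstream of *Tgfbr1*, of which 186 bases are coding exon of *Col15a1*, chr9:116153322-116153621 in the intron of *Tgfbr2*, chr5:107200796-107201095 in the intron of *Tgfbr3*, chr9:63678370-63678669 in the intron of *Smad3* and chr9:63810210-63810509 upstream of *Smad3*.
Tgfbr1 upstream: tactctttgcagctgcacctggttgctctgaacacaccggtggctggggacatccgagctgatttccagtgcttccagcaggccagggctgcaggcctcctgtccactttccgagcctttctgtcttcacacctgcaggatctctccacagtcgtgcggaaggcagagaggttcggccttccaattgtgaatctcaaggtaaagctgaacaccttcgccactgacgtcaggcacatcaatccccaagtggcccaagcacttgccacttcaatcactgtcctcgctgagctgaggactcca
Tgfbr2 intron: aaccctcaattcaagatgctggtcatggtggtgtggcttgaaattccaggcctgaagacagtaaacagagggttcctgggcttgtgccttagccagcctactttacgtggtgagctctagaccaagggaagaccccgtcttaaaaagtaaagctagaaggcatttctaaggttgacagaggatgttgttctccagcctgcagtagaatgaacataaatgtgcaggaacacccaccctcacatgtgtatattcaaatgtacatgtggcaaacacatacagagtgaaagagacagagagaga
Tgfbr3 intron: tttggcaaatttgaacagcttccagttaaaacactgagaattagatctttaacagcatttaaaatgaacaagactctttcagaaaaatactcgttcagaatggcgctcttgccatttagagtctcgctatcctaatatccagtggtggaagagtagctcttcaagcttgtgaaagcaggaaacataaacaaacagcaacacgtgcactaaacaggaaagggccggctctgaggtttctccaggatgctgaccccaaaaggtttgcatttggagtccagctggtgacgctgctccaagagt
Smad3 intron: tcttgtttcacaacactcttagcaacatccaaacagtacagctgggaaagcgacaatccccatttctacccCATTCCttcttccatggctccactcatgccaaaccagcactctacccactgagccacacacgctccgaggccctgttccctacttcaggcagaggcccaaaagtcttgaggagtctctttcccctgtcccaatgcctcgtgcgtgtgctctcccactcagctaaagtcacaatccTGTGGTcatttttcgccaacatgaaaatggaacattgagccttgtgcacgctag
Smad3 upstream: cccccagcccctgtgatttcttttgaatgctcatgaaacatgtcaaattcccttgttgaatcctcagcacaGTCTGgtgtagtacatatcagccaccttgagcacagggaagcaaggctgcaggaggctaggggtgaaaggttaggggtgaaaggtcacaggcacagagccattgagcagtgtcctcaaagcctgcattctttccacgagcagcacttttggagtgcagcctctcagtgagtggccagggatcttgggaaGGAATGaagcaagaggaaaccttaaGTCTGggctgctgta

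The upstream window of *Smad3* holds 2 SMAD boxes and 1 TEAD match, its intronic window 1 TEAD and 1 RUNX match, and the windows of the receptors hold none of the 4 motifs. Over the 38 regions of the 10 genes a SMAD box was found in 20, or 52.6%, a TEAD match in 8, or 21.1%, a RUNX match in 5, or 13.2%, and an AP-1 match in 4, or 10.5%. Over all 5359 shared regions away from starts the shares were 57.8%, 17.8%, 22.1% and 11.6%. A window of 300 bases at the summit need not hold the bases that a factor binds, and the absence of a match says only that these letters are not in it.

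Joined over 12500 bp, the peaks formed 14560, 18280 and 16371 domains in clones 1, 2 and 3. They were ranked by the bases under peaks, and those in the top 5%, which hold at least 5.44, 7.34 and 4.29 kb under peaks, were counted. *Smad3* and *Smad7* lay in such a domain in every clone, that is 2 of the 10 genes, against 2.51% of all protein-coding genes. *Smad3* lost this place in the lists with a −log10 q of at least 5 and when peaks were joined over 5 kb, where *Tgfbr3* took it, and *Smad7* kept it at each of these settings. *Tgfbr3* did so in clones 1 and 3, at the top 2.90% and 1.70%, and missed it in clone 2 at 5.14%. Where several domains overlapped a gene, the one with the most bases under peaks was taken, and a long gene can overlap more of them. The part of length in the count of 2 was not tested.

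The domain of *Smad7* ranked 33, 179 and 74 in the 3 clones, which is the top 0.227%, 0.979% and 0.452%. It spanned 30.0, 68.6 and 29.7 kb with 11, 24 and 11 peaks and 17.8, 19.4 and 10.1 kb under them, and no other protein-coding gene lay in it. In clone 2 it reached up to the upstream region at 24.7 kb, which was not joined to it in the other clones. The domain of *Smad3* ranked 385, 207 and 444, the top 2.64%, 1.13% and 2.71%. In clones 1 and 3 it held the intronic peaks alone, with a span of 29.6 and 25.2 kb, and in clone 2 it ran on to the promoter, with 61.0 kb and 23 peaks. The domain of *Tgfbr3* lay in an intron too, ranked 422, 939 and 278, and did not include the promoter in any clone. That of *Tgfbr2* was the intronic cluster, at ranks 851, 2285 and 1998.

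*Smad2*, *Smad4* and *Tgfbr1* were at the other end. Their domains were their promoter peaks with 1.44 to 1.83 kb under peaks, and they ranked in the top 30.8% to 44.0%. *Smad2* and *Smad4*, which had the most reads at the start, thus shared the smallest domains of the 10 with *Tgfbr1*, while *Smad7*, whose start ranked below the middle in clones 2 and 3, had the largest domain of the 10 in every clone.

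**Figure D4:**
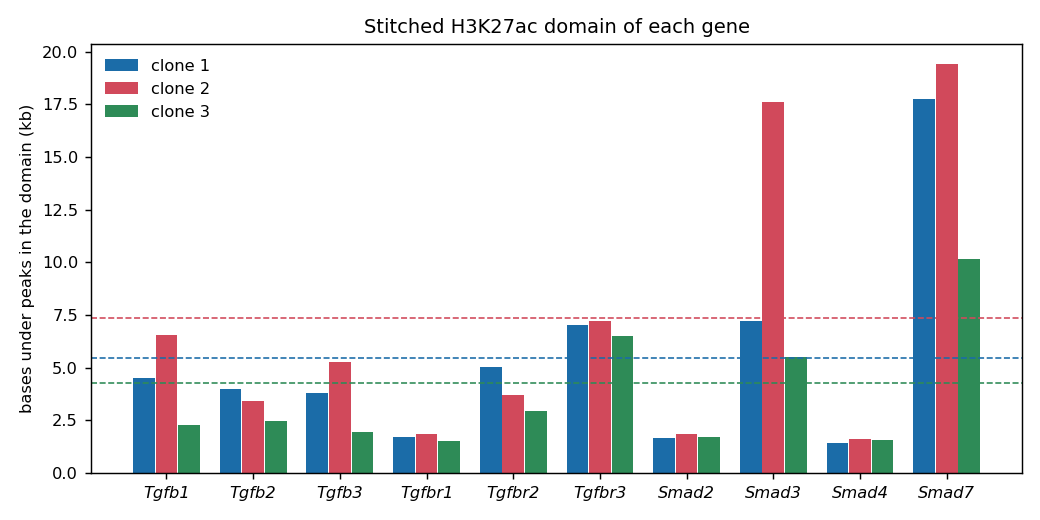
Bases under H3K27-Ac peaks in kb (vertical axis, from 0) in the domain of each gene (horizontal axis), with 1 bar per clone and, as dashed lines in the same colours, the least value of the top 5% of domains of that clone. The bars of *Smad3* and *Smad7* pass the line in every clone and those of *Tgfbr3* in clones 1 and 3.

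The other genes of the pathway and its superfamily were given by 7 lists with 66 genes in all. Of these, 44 had a promoter peak in every clone (46.5% of all protein-coding genes did), 9 in 1 or 2 clones and 13 in none, with 48, 52 and 44 genes in clones 1, 2 and 3. Domains of the top 5% were found in every clone at 6 of the 66, *Ltbp3*, *Gdf15*, *Ski*, *Tgif1*, *Id2* and *Id3*, against 2.51% of all protein-coding genes. A domain need only overlap the gene or 1 kb around its starts, so peaks outside the gene count in its rank. *Gdf15*, *Tgif1*, *Id2* and *Id3* had 0 body peaks in every clone, *Ltbp3* had 0, 1 and 1 and *Ski* had 7, 21 and 8. *Gdf15* had 19, 48 and 16 distal peaks and *Ltbp3* had 25, 60 and 17. The part of neighbouring genes in these ranks was not tested.

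Among 11 genes of latency and activation, 7 were marked at the promoter in every clone. *Ltbp3*, which encodes a binding protein of latent TGF-β, and *Furin*, the protease that cleaves the precursor, had the highest ranked domains by the mean over clones, at the top 1.45%, 0.317% and 1.07% and the top 5.78%, 0.421% and 6.11%. *Ltbp2* was marked in clone 2 alone with 16 reads, and *Lrrc32*, *Nrros* and *Itgb6* in no clone, although *Itgb6*, an integrin of epithelia that activates the ligand, held 2, 4 and 5 body peaks. Of 10 other ligands 5 were marked in every clone, with *Gdf15* and *Inhba* leading by the mean rank of the domain. *Gdf15* lay in the top 1.20%, 0.0109% and 3.97%, and *Inhba* in the top 11.5%, 12.3% and 7.34%. *Bmp6* was marked in clone 2 alone, and *Bmp2*, *Bmp7*, *Nodal* and *Mstn* in no clone.

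Of 10 other receptors 6 were marked in every clone, and by the mean over clones *Acvr1* and *Bmpr1a*, both type I receptors, had the highest ranked domains. *Acvr1* lay in the top 4.40%, 6.18% and 8.44% and *Bmpr1a* in the top 16.2%, 24.4% and 4.99%, and in clone 2 alone *Eng*, at 2.07%, stood above both. *Acvrl1* was marked in clone 2 alone, and *Acvr1c*, *Bmpr1b* and *Eng* in no clone. Of the 4 other Smads *Smad1*, *Smad5* and *Smad6* were marked in every clone, and *Smad9* in clones 1 and 2 with 45 and 100 reads. *Smad5*, a receptor-regulated Smad of the BMP branch, had 222, 376 and 176 reads, close to the 226, 371 and 166 of *Smad2*. *Smad6*, the second inhibitory Smad, had 88, 124 and 38 reads, and its domain lay in the top 8.70%, 3.17% and 64.1%, unlike that of *Smad7*.

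Of 12 inhibitors and co-repressors 8 were marked in every clone. *Ski*, a co-repressor of the Smads, lay in the top 0.453%, 0.197% and 0.733% of domains, and *Tgif1*, a homeobox co-repressor, in the top 0.824%, 3.67% and 0.391%. *Bambi* was marked in clones 1 and 2, *Grem1* in clone 2, *Nog* in clone 1 and *Dcn* in none. Of 8 Smad partners and adaptors 7 were marked in every clone, and *Foxh1* in none. *Foxh1* lay in a domain in clones 1 and 2, at the top 13.8% and 0.777%, which held no promoter peak of it, and in none in clone 3. *Tab1*, an adaptor of the kinase TAK1, lay in the top 14.0%, 1.67% and 8.59%. Of 11 target genes 8 were marked in every clone. *Id3* and *Id2*, inhibitors of helix-loop-helix factors, lay in the top 0.515%, 1.51% and 0.470% and the top 2.87%, 4.25% and 1.73%. *Col1a1* was marked in clones 1 and 2, *Tgfbi* in clone 2 alone with 64 reads, and *Cdkn2b*, which the mutation removes, in no clone.

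**Figure D5:**
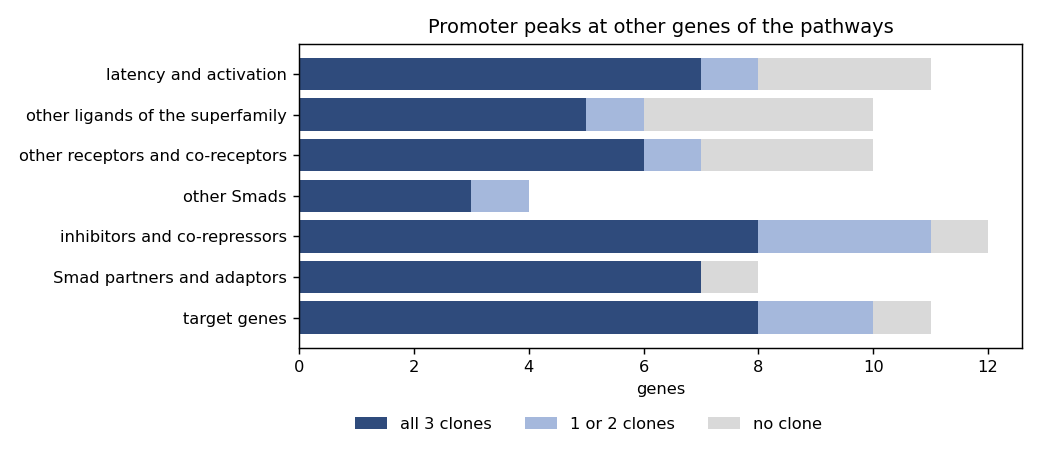
Number of genes (horizontal axis, from 0) in each of 7 lists of other pathway genes (rows), split by whether a promoter peak was found in all 3 clones, in 1 or 2 clones or in no clone. Other Smads is the only list in which every gene was marked in at least 1 clone.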

How the data were processed

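The deposited files are 3 narrowPeak lists, 1 per clone, that the authors called on GRCm38. The submitters' processing notes name Bowtie2 and MACS2 version 2.1.1, and the names of the peaks carry a mark of filtering against allelic mapping bias in clones 1 and 2 and of merging in clone 3. Each peak comes with a deposited fold enrichment, the ratio of ChIP pileup to control background at its summit, and with a p-value and a q-value deposited as −log10. From these the whole ChIP reads at each summit were solved with Python 3.11.15, numpy 2.4.6, pandas 2.3.3 and scipy 1.17.1, which succeeded for 100% of the peaks and was checked on simulated data. Read totals are not given. The reads at the summit of listed peaks had medians of 37, 34 and 53 in clones 1, 2 and 3. These medians move with the threshold of each list and are no measure of sequencing depth. The median fold enrichment was 7.70, 7.14 and 5.38, and the parts of depth and of enrichment in these values were not tested.

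Genes and starts were those of GENCODE M21, sequences those of RefSeq, and coordinates count from 1. An overlap of 1 bp was enough for a call. There is 1 condition with 1 list per clone, so no test was made and SDs are over clones, which covers tumour, line and library alike. Alternatives were windows of 500 bp and 2 kb, peaks covering the start, a distance of 50 kb, joining over 5 and 20 kb, ranking by span, the top 10%, a −log10 q of at least 5, equal numbers of peaks, starts of coding transcripts and leaving out each clone. The genes and lists were chosen with earlier results of these data known. All 10 genes are named, and of the other pathway genes those marked in some or no clones and the 2 per list with the highest ranked domains, by the mean over the clones with a domain. Figures were drawn with matplotlib 3.10.9. Allele counts were not analysed here.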

Additional observations from a re-analysis of the deposited data

How the results depend on the processing

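Of 47 recomputed values of 7 results, 44 stayed within 1.5 times the count, or within 1 SD for the percentile, and 3 did not. With the −log10 q raised to 5 or more, the number of genes in a top 5% domain in every clone fell from 2 to 1, *Smad7*, and the median percentile of the promoter peaks was 85.2 in place of 89.8. With size factors taken near starts, chosen after the data were seen, 0 genes in place of 1 were over 2-fold apart between clones. The genes in a top 5% domain were also not always the same ones, as joining over 5 kb gave *Tgfbr3* and *Smad7* in place of *Smad3* and *Smad7*. The stricter lists hold 22375, 35219 and 18610 peaks in clones 1, 2 and 3, and the percentile was taken anew within these shorter lists. The causes of the changes were otherwise not tested. Leaving out each clone in turn gave 10 genes with a promoter peak, 44 to 47 other pathway genes, 5 to 6 with a body peak, 9 to 10 with a distal peak, 2 to 3 in a top 5% domain and a median percentile of 88.8 to 91.5. No paired analysis was possible because there is a single condition. A peak list leaves out sites below its threshold, so a missing peak is a site not detectable at the depth and enrichment of that list.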
